A study of Mus musculus with 10 samples.

Results

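The NR4A, EGR and IER early genes are 9 transcripts of the first wave of gene expression that follows a stimulus. They are Nr4a1, Nr4a2 and Nr4a3, Egr1, Egr2 and Egr3, and Ier2, Ier3 and Ier5. They were chosen by gene name, and each had 1 row among the 26863 genes of the deposited table. The tissue was interscapular brown fat, the heat-producing depot of the mouse, taken 1 h after the animals were injected with CNO (clozapine-N-oxide), a ligand of designer receptors. Libraries of polyA RNA were made from 5 PnocCre and 5 Wildtype samples, and both genotypes received CNO. By the series' description the collection followed activation of PNOC neurons in the medial preoptic area, a part of the hypothalamus involved in thermoregulation. The sources used here do not give the receptor, whether Wildtype animals carried it, or the animals' age.

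Immediate early genes need no new protein to be switched on, so their RNA appears within minutes of a signal and is soon degraded. Cyclic AMP and protein kinase A act on them through CREB at cyclic AMP response elements, and growth factor signalling through ERK acts at serum response elements. In brown fat, noradrenaline from sympathetic nerves uses cyclic AMP and is known to induce NR4A genes. The NR4A proteins are orphan nuclear receptors, and the EGR proteins are zinc finger transcription factors. The IER genes code for small proteins named for their rapid induction.

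Each library held 21304238 to 29171787 recovered reads, and a level is given as a normalised count, the read count of a gene divided by the library's size factor. Brown fat markers were abundant in every library, with 0 of 8 at 0 in any of them. Their summed level was 123197 to 161555 normalised counts in PnocCre and 160866 to 211481 in Wildtype. Skeletal muscle markers set libraries apart, at 8827 to 167288 normalised counts in PnocCre and 2198 to 22892 in Wildtype, with 7 of 14 at 0 in at least 1 library. PnocCre replicate 2 held 5882 normalised counts of lymphocyte markers, while its group mates held 282 to 679 and Wildtype libraries 202 to 322. In bulk tissue, fewer cells of a type and less RNA per cell cannot be told apart.

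The promoters of 6 of the 9 genes were in the RefSeq promoter table (build GRCm38.p6), which gives 250 bases before and 50 after each transcript start. Egr1, Egr3 and Ier2 had no window there. The 4 printed here are those with the core letters of the cyclic AMP response element (TGACG, searched on both strands) or of the CArG box, the core of the serum response element. Capitals mark these matches, and each sequence runs 5′ to 3′ on the strand of the gene.
Nr4a1 (chr15:101266596-101266895, plus strand): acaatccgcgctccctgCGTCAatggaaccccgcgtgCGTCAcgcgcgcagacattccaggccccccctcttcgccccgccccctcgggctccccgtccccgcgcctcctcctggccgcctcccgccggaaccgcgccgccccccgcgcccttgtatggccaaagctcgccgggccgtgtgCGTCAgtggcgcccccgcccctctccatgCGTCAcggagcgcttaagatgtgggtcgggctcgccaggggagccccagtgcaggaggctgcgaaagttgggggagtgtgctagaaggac
Nr4a2 (chr2:57123954-57124253, minus strand): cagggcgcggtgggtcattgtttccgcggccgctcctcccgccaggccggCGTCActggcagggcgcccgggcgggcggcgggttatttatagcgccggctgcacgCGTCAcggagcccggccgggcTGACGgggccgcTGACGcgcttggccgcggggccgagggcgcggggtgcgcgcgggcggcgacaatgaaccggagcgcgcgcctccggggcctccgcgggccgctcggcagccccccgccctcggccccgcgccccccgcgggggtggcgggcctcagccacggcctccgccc
Nr4a3 (chr4:48045055-48045354, plus strand): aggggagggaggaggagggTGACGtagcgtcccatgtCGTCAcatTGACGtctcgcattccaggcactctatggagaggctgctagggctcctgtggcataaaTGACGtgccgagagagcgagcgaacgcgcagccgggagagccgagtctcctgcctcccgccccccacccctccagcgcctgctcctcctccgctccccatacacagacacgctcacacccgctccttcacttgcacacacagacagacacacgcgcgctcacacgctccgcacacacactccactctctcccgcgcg
Egr2 (chr10:67537619-67537918, plus strand): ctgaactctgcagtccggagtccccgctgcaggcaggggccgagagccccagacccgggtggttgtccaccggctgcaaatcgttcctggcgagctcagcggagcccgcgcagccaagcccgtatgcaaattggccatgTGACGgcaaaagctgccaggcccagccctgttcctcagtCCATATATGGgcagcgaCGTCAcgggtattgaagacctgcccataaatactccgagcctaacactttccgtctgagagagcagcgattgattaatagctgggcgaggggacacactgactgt
Each of the NR4A windows held 4 of the TGACG cores, a number reached by 0.231% of the 32851 windows in the table, while 20.8% held at least 1. The NR4A windows were 64.7% to 81.7% G and C, and the share over all windows is not matched for this. No window of the early genes held the full element TGACGTCA, which 1.79% of all windows held. The Egr2 window held 2 cores and 1 CArG box, a motif found in 1.63% of all windows. Egr2 has 5 listed starts in the table, and the window printed is 1 of the 3 overlapping ones with both motifs. Neither motif was in the windows of Ier3 and Ier5. These are matches of letters in a fixed window, and no binding was measured.

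Between the genotypes, all 9 early genes had overlapping groups, and 0 passed the test. The mean was higher in PnocCre for 8 of them and the median for 6. On the log2 scale of the test Egr3 had the largest fold change, where PnocCre averaged 177 ± 132 normalised counts and Wildtype 63.1 ± 33.4 (SD, n = 5 per genotype). Ier5 had the only lower mean in PnocCre. limma, run on log2(normalised count + 1) over the 15301 genes that averaged 10 or more normalised counts, called 0 genes in all (0%) at a Benjamini-Hochberg adjusted p under 0.05. The adjusted p of the 9 ran from 0.217 to 0.937. At an unadjusted p under 0.05 stood 2 of the 9, Egr3 and Ier2, both higher, against 8.94% of all genes tested on that side and 17.0% on either side. edgeR had the same 2 of 9 under an unadjusted p of 0.05, against 17.6% of the 15301 genes. DESeq2 had them too, against 12.3% of 26599 genes, a larger set without the filter on level, so its share is not on the same footing. With limma this count was 0 without PnocCre replicate 1 (Egr3 p 0.0561, Ier2 p 0.0593), 0 with array weights and 0 with the muscle covariate described below. It was 1 without Wildtype replicate 1, 4 or 5, and 4 without Wildtype replicate 3. Groups that did not overlap were seen for 0 of the 9, and for 4.40% of all genes tested (1.79% higher and 2.61% lower in PnocCre). Median log2 fold change was 0.68 over the 9 and -0.0062 over all genes. Without PnocCre replicate 1 the 9 split into 5 above and 4 below 0, with a median of 0.43, and without Wildtype replicate 5 into 6 and 3, with a median of 0.38.

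**Figure D1:**
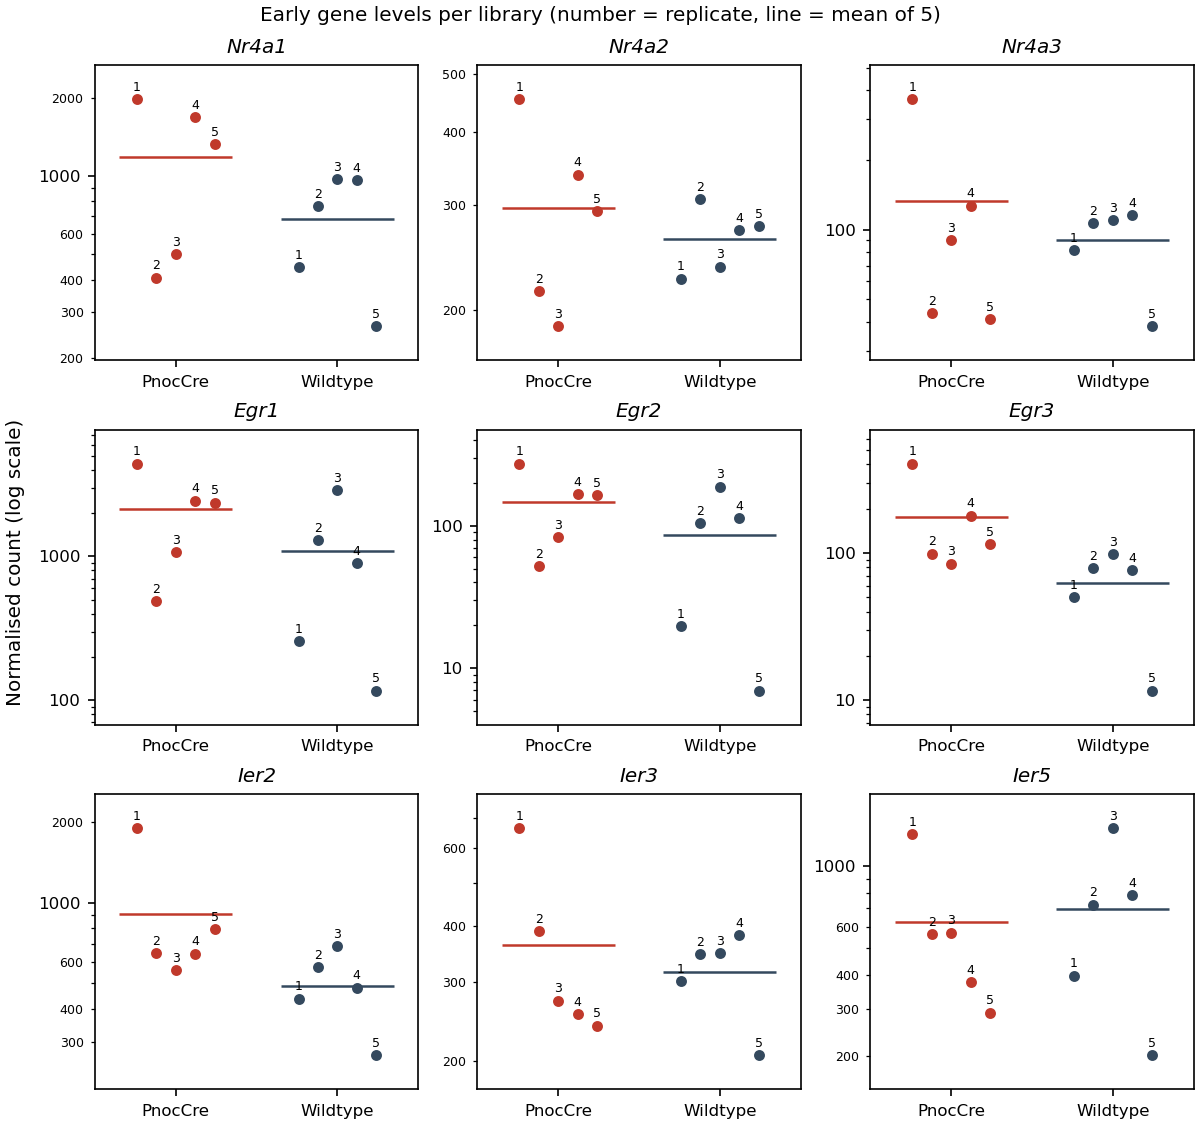
Normalised counts of the 9 early genes (log axis) in each PnocCre and Wildtype library. Points are libraries, numbered by replicate, and lines are the means of 5 libraries. PnocCre replicate 1 is the highest library for 8 genes and Wildtype replicate 5 the lowest for 8.

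Of the NR4A receptors, Nr4a1 (Nur77; chromosome 15, 101152150 to 101172676, plus strand) was the most abundant. PnocCre replicates 1 to 5 had 1978, 407, 501, 1692 and 1326 normalised counts of Nr4a1. Wildtype replicates 1 to 5 had 446, 766, 973, 968 and 265. PnocCre thus split into 3 libraries above every Wildtype value and 2 that lay below the Wildtype median. The log2 fold change was 0.68 with an SE of 0.51 (limma adjusted p 0.491), and 0.38 without Wildtype replicate 5. A long noncoding gene lies in the same span and strand as Nr4a1, at a mean of 8.60 normalised counts, so reads in shared sequence are uncertain.

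Nr4a2 (Nurr1; chromosome 2, 56996842 to 57014015, minus strand) varied least among the 9 genes. Its PnocCre libraries 1 to 5 had 454, 215, 188, 338 and 293 normalised counts, and its Wildtype libraries 226, 308, 236, 273 and 277. The Wildtype values lay inside the PnocCre range, and the 2 means were 298 ± 106 and 264 ± 33.1. limma gave a log2 fold change of 0.11 (SE 0.22, adjusted p 0.802).

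Nr4a3 (NOR-1; chromosome 4, 48045153 to 48086447, plus strand) had 1 library far above the rest. In PnocCre replicates 1 to 5 it stood at 365, 43.6, 90.2, 127 and 41.05 normalised counts. In Wildtype it stood at 81.5, 107, 110, 115 and 38.3. Without PnocCre replicate 1 the log2 fold change turned from 0.17 (SE 0.54, limma adjusted p 0.887) to -0.32. The median was lower in PnocCre, at 90.2 against 107, although the mean was higher.

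EGR genes had the widest swings between libraries. Egr1 (chromosome 18, 34992876 to 34998037, plus strand), the founding member of the family, had 4422, 487, 1066, 2450 and 2366 normalised counts in PnocCre replicates 1 to 5. In Wildtype replicates 1 to 5 it had 256, 1293, 2900, 893 and 116. Wildtype replicate 3 thus exceeded 4 of the PnocCre libraries, and Wildtype replicates 1 and 5 lay below all of them. From the lowest library to the highest the level of Egr1 differed 38.1-fold. The log2 fold change between genotypes was 1.41 with an SE of 0.92 (limma adjusted p 0.437), and 0.80 without Wildtype replicate 5.

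Egr2 (Krox20; chromosome 10, 67371305 to 67378018, plus strand), known for myelination and early adipogenesis, followed Egr1 closely at a lower level. PnocCre libraries 1 to 5 had 272, 51.8, 83.0, 166 and 164 normalised counts. Wildtype libraries had 19.8, 104, 188, 113 and 6.97, the last from 6 reads. The order of the libraries nearly repeats that of Egr1, with Wildtype replicates 1 and 5 again at the bottom. The log2 fold change was 1.29 (SE 0.81, limma adjusted p 0.419). It was 0.62 without Wildtype replicate 5, and DESeq2 and edgeR gave 0.77 and 0.80 on all libraries.

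Egr3 (chromosome 14, 70314652 to 70320063, plus strand), an NFAT target in lymphocytes, came closest to separating the genotypes. Its PnocCre replicates 1 to 5 had 404, 99.0, 84.8, 180 and 115 normalised counts. Wildtype replicates 1 to 5 had 50.2, 78.5, 98.1, 76.9 and 11.6. Only Wildtype replicate 3 reached into the PnocCre range, where it lay above PnocCre replicate 3. With limma the log2 fold change was 1.504 (SE 0.56, adjusted p 0.217), and edgeR's quasi-likelihood test gave 1.51 (adjusted p 0.210). Without Wildtype replicate 5 the limma value was 0.99. The authors' deposited table lists 1.49 with an adjusted p of 0.0637, and 575 of 16733 genes, 3.44%, are under 0.05 there. DESeq2 refitted without PnocCre replicate 3, the lowest PnocCre library for Egr3, gave an adjusted p of 0.0437. Over the other libraries left out one at a time its adjusted p ran from 0.0509 to 0.308.

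Among the IER genes, Ier2 (chromosome 8, 85387960 to 85389483, minus strand), which codes for a nuclear protein, showed the other difference with an unadjusted p under 0.05. PnocCre replicates 1 to 5 had 1896, 647, 557, 643 and 793 normalised counts of Ier2. Wildtype replicates had 436, 573, 686, 480 and 268. All 5 PnocCre libraries were above the Wildtype median of 480, but Wildtype replicates 2 and 3 lay among them. The log2 fold change was 0.79 (SE 0.33, limma adjusted p 0.253). It was 0.49 (unadjusted p 0.0593) without PnocCre replicate 1.

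Ier3 (IEX-1; chromosome 17, 36132576 to 36133815, plus strand), a regulator of apoptosis induced through NF-kB, gave no such order. It had 664, 389, 272, 254 and 239 normalised counts in PnocCre replicates 1 to 5. It had 301, 346, 348, 382 and 206 in Wildtype. The median was higher in Wildtype (346 against 272), and the log2 fold change of 0.12 (SE 0.27, limma adjusted p 0.838) became -0.13 without PnocCre replicate 1.

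Ier5 (chromosome 1, 154972107 to 154975382, minus strand), a partner of the phosphatase PP2A and of heat shock factor HSF1, was the 1 gene whose highest library was Wildtype. The PnocCre values were 1315, 564, 570, 375 and 289 normalised counts. Wildtype values were 396, 723, 1380, 784 and 202. PnocCre replicates 4 and 5, which were high for Egr1 and Nr4a1, were low for Ier5. The log2 fold change was -0.09 (SE 0.51, limma adjusted p 0.937), and it was 0.23 without Wildtype replicate 3.

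**Figure D2:**
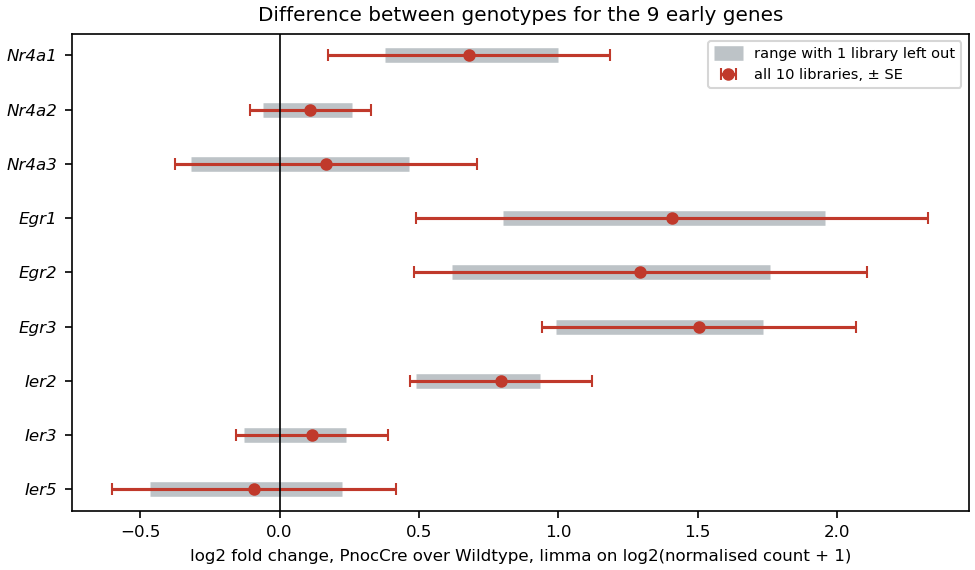
Log2 fold change of PnocCre over Wildtype for the 9 early genes, from limma on log2(normalised count + 1). Points are the fit to 10 libraries with bars of 1 SE, and grey bars are the range with 1 library left out. The range of Egr1, Egr2, Egr3, Nr4a1 and Ier2 stays above 0 and that of Nr4a2, Nr4a3, Ier3 and Ier5 crosses it.

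All 13 skeletal muscle markers tested had a log2 fold change above 0, at a median of 5.66. limma called 0 of them and DESeq2 2, where DESeq2 called 3.44% of all genes. At an unadjusted limma p under 0.05 stood 11, all higher, against 8.94% of all genes tested on that side. With the mean log2 level of the muscle markers as a covariate, the log2 fold change became -0.07 for Nr4a1 (SE 0.63), -0.13 for Egr1 (SE 0.98) and -0.42 for Egr2 (SE 0.88). For Egr3 it went from 1.504 to 0.88 (SE 0.77), and the unadjusted limma p from 0.0206 to 0.277. For Ier2 it went from 0.79 to 0.68 (SE 0.47), and the unadjusted p from 0.0322 to 0.176. Ier5 moved from -0.09 to -0.65 (SE 0.67). Nr4a2 went from 0.11 to 0.22 (SE 0.31), Nr4a3 from 0.17 to 0.13 (SE 0.78) and Ier3 from 0.12 to 0.14 (SE 0.39). PnocCre libraries had muscle levels of 7.66 to 12.1 and Wildtype libraries 1.97 to 9.19, so muscle level and genotype largely go together. This fit cannot tell the parts of muscle level and genotype apart. The mean log2 level of the muscle markers was 2.26 and 1.97 in Wildtype replicates 1 and 5, the lowest for Egr1. It was 9.19 and 9.16 in Wildtype replicates 3 and 4. Wildtype replicate 2 had a muscle level of 4.06 and more Egr1 than Wildtype replicate 4 (1293 against 893 normalised counts). PnocCre replicate 1, the highest for Egr1, had the lowest muscle level of its group at 7.66. PnocCre replicate 5 had the highest muscle level, 12.1, and ranked 4 of 10 for Egr1. No correlation of muscle level with the early genes is given. Other marker lists also had log2 fold changes above 0, and limma called 0 of their genes. This held for 7 of 7 fibroblast markers (median 0.77, 5 called by DESeq2), 4 of 4 white adipocyte markers (median 1.26, 2 called) and 7 of 7 lymphocyte markers (median 1.38, 1 called). It held for 5 of 6 macrophage (median 0.48, 2 called), 6 of 6 endothelial (median 0.20, 0 called) and 4 of 4 red blood cell markers (median 0.21, 0 called). The part of these lists in the differences was not tested.

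Per kilobase of gene length, the only scale on which genes can be compared, Ier2 stood highest in Wildtype at 321 ± 102 normalised counts per kilobase (SD, n = 5). Ier3 (280 ± 60.5), Egr1 (243 ± 249), Ier5 (213 ± 137), Nr4a1 (195 ± 90.4) and Nr4a2 (65.0 ± 8.16) followed in this order. Egr2 (25.4 ± 21.9), Nr4a3 (15.1 ± 5.31) and Egr3 (14.3 ± 7.59) were lowest. Neighbours in the order overlapped in their Wildtype ranges, except Nr4a2 and Egr2, which lay just apart at 55.6 and 55.3. In PnocCre, Egr1 moved to the second place at 481 ± 339 and Egr3 reached 40.1 ± 30.0, above Nr4a3 at 22.3 ± 22.4.

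The spread inside a genotype was large for these genes. The residual SD of the log2 level, which measures how far libraries of 1 genotype differ, had a median of 0.95 over the 9 genes and 0.31 over all genes tested. It was above the median of all genes for 9 of 9 and above their 90th percentile for 6. Egr1 (1.58), Egr2 (1.51) and Egr3 (1.06) led, and Nr4a2 (0.38) was nearest to the ordinary gene. The coefficient of variation of Egr1 was 70.4% in PnocCre and 102% in Wildtype.

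The 9 genes shared which libraries were high and which were low. PnocCre replicate 1 was the highest library for 8 genes, with Ier5 as the exception, and among the 3 highest for 9 of 9. Wildtype replicate 5 was the lowest library for 8 genes, with Nr4a2 as the exception. Wildtype replicate 1 was among the 3 lowest for 6. When each gene was scaled to its own mean and SD, the mean over the 9 was 1.72 SD in PnocCre replicate 1 and -1.52 SD in Wildtype replicate 5. The second highest library was Wildtype replicate 3 (0.42), so the order of the libraries does not follow the genotype.

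**Figure D3:**
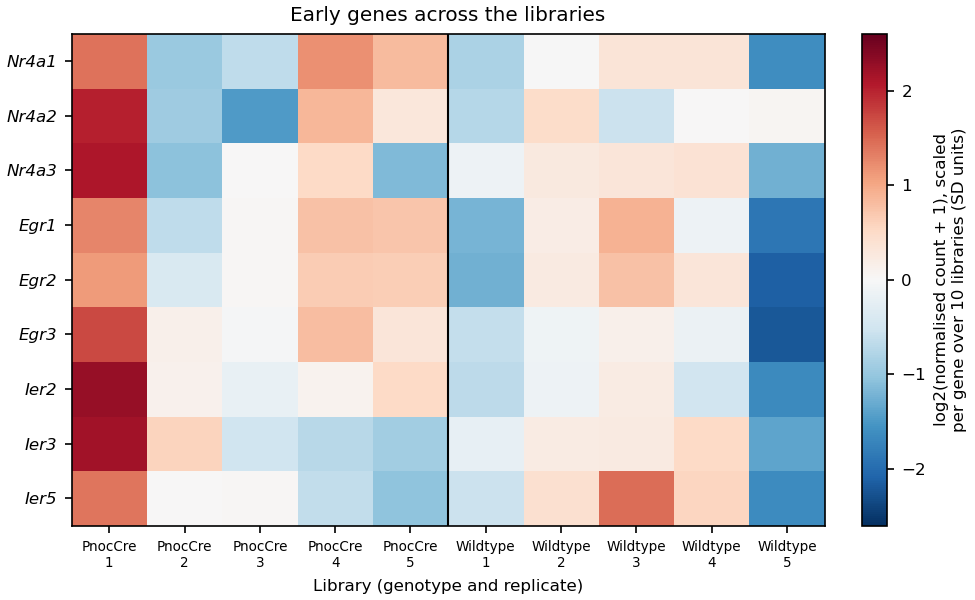
Levels of the 9 early genes in the 10 libraries, as log2(normalised count + 1) scaled per gene to mean 0 and SD 1. Red is high and blue is low, and the line parts the genotypes. PnocCre replicate 1 is red and Wildtype replicate 5 blue in nearly every row, while PnocCre replicates 4 and 5 are red for Nr4a1 and the EGR genes and blue for Ier3 and Ier5.

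Over the 10 libraries the 36 pairs of early genes had Pearson correlations of log2 level from 0.17 to 0.98, with a median of 0.67. Without the 2 libraries farthest from the median of a pair's first gene, the median r was 0.27. Of the 36 pairs, 27 then had an r above 0, where all 36 had it over the 10 libraries. After Benjamini-Hochberg adjustment over the 36 pairs, 13 passed a 2-sided permutation test with 100000 resamples, and 11 passed it with Spearman's rho. With group means removed, 22 passed an exact permutation test within genotypes. The tightest pair was Egr1 with Egr2 (r 0.98, adjusted p 0.00036, whose raw p of 1e-05 is the smallest the permutations can give; rho 0.96, adjusted p 0.0018). Without the 2 libraries farthest from the median of Egr1, r was 0.97.

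Nr4a1 passed with all 3 EGR genes and with neither of the other NR4A receptors. Its r was 0.85 with Egr3 (permutation adjusted p 0.0021; rho 0.77, adjusted p 0.0451), 0.91 with Egr1 (permutation adjusted p 0.00187; rho 0.92, adjusted p 0.00648) and 0.90 with Egr2 (adjusted p 0.00144; rho 0.95, adjusted p 0.00198). Without the 2 libraries farthest from its median these were 0.70, 0.82 and 0.82. With Nr4a2 its r was 0.70 (permutation adjusted p 0.0573; rho 0.67, adjusted p 0.0896), and 0.82 without those 2 libraries. With Nr4a3 its r was 0.67 (permutation adjusted p 0.0663; rho 0.73, adjusted p 0.0604), and 0.30 without those 2 libraries. Ier2 was closest to Egr3 (r 0.93, permutation adjusted p 0.00805; rho 0.90, adjusted p 0.00738), with 0.74 when the 2 libraries farthest for Egr3 were left out. The difference between any of these correlations was not tested.

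Ier3 and Ier5 formed another pair (r 0.83, permutation adjusted p 0.00812; rho 0.81, adjusted p 0.0384), at 0.71 without the 2 libraries farthest for Ier3. Of the pairs of Nr4a1 with Ier3 and Ier5 neither passed, at r 0.44 and 0.45, and both were negative without the 2 farthest libraries (-0.44 and -0.12). Of the 13 pairs that passed, 3 had an r under 0.5 without the 2 farthest libraries. Leaving out Wildtype replicate 5 lowered the number of passing pairs to 7, and leaving out PnocCre replicate 5 raised it to 20.

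**Figure D4:**
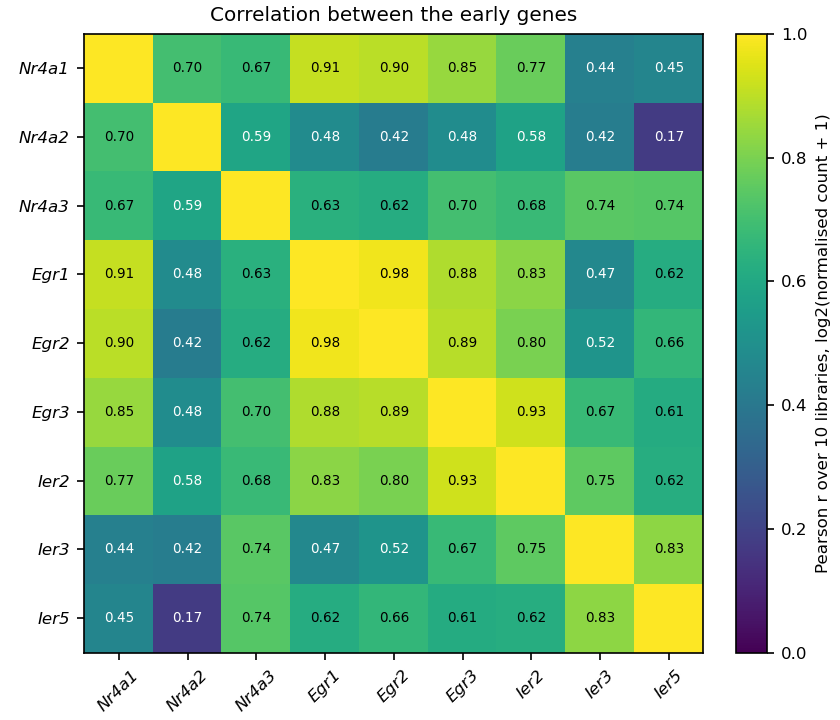
Pearson r between the log2(normalised count + 1) values of each pair of early genes over the 10 libraries. Yellow marks high r. Nr4a1, Egr1, Egr2, Egr3 and Ier2 form a block from 0.77 to 0.98, and Nr4a2 has its lowest value, 0.17, with Ier5.

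Other genes of the same response were read for the same difference. Of 32 further immediate early genes, 30 were measured well enough to test, 23 had a log2 fold change above 0, and limma and DESeq2 called 0. Their median was 0.23, and 49.3% of all genes tested were above 0. The smallest p-values were those of the clock gene Per1 (1618 ± 369 against 1031 ± 310 normalised counts, limma adjusted p 0.167), Klf2, a factor of endothelium and lymphocytes (log2 fold change 0.51), the matricellular protein gene Ccn1 (1.06) and the antiproliferative gene Btg2 (0.71).

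Partners and relatives of the 3 families had lower means in PnocCre, in 6 of 6 tested, at a median log2 fold change of -0.19, and limma and DESeq2 called 0. Among them were Nab1 (-0.18) and Nab2 (-0.58), corepressors that bind EGR proteins, and Rxra (-0.29) and Rxrb (-0.20), retinoid X receptors, a family that pairs with Nr4a1 and Nr4a2. Nab2, itself an EGR target, averaged 161 ± 99.3 normalised counts in PnocCre against 207 ± 55.1 for Wildtype (limma adjusted p 0.480). Egr4 was too low to test.

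Upstream of the early genes, 9 of 18 factors were higher and 9 lower, with a median of -0.0023. limma called 0 and DESeq2 1, against 3.44% of all genes called by DESeq2. The 1 was Mef2c, a MADS box factor of muscle and endothelium (610 ± 110 against 277 ± 63.4 normalised counts, limma adjusted p 0.101). Its relatives Mef2a (0.25) and Mef2d (-0.25) and the ERK-responsive factor Elk4 (0.42) had limma adjusted p-values from 0.267 to 0.294. With the muscle covariate the log2 fold change of Mef2c was 1.08 (SE 0.24, limma adjusted p 0.179), against 1.14 without it. Of 9 genes that cyclic AMP induces in brown fat, 3 were higher and 6 lower, at a median of -0.10. Here DESeq2 called 1, the uncoupling protein gene Ucp1, which was lower (log2 fold change -0.62, limma adjusted p 0.116). The 8 brown fat markers, Ucp1 among them, all had a log2 fold change below 0 (median -0.29), as had 7765 of the 15301 genes tested. Of these markers only 2, Ucp1 and Elovl3, had an unadjusted limma p under 0.05, as had 1235 of all genes tested on that side. Per1, which is in the cyclic AMP list too, was higher (0.67, limma adjusted p 0.167). Irf4 (0.37) and the phosphodiesterase gene Pde4d (-0.53) had limma adjusted p-values of 0.388 each.

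Which genes share the library pattern was asked with genotype means removed, over the 11777 other genes that averaged 50 or more normalised counts. Likeness is the Pearson r over the 10 libraries with the mean scaled level of the 9 early genes, given as a description, since all genes share the same libraries and depths. The 10 most alike were Atf3 (0.95), Sphk1, Btg2, Gm13889, Junb, Vmp1, Rps27rt, Arid5a, Akap12 and Ifrd1 (0.93). Atf3 is a stress-induced transcription factor, Junb an AP-1 subunit, Sphk1 makes sphingosine 1-phosphate and Akap12 anchors protein kinase A. Rps27rt has a near-identical copy and is uncertain. Their adjusted p between genotypes with limma ran from 0.316 to 0.925.

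The 28 further immediate early genes that could be compared had a median r of 0.83, where the median of all 11777 genes was -0.043. Among them Csrnp1 (0.93), Zfp36 (0.91) and Dusp5 (0.90) stood near the top, and Fos reached 0.86. Klf2 (-0.54), Klf4 (-0.30) and Ccn2 (-0.29) had the opposite sign. With 1 library left out at a time, the median over the 28 stayed between 0.80 and 0.87.

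**Figure D5:**
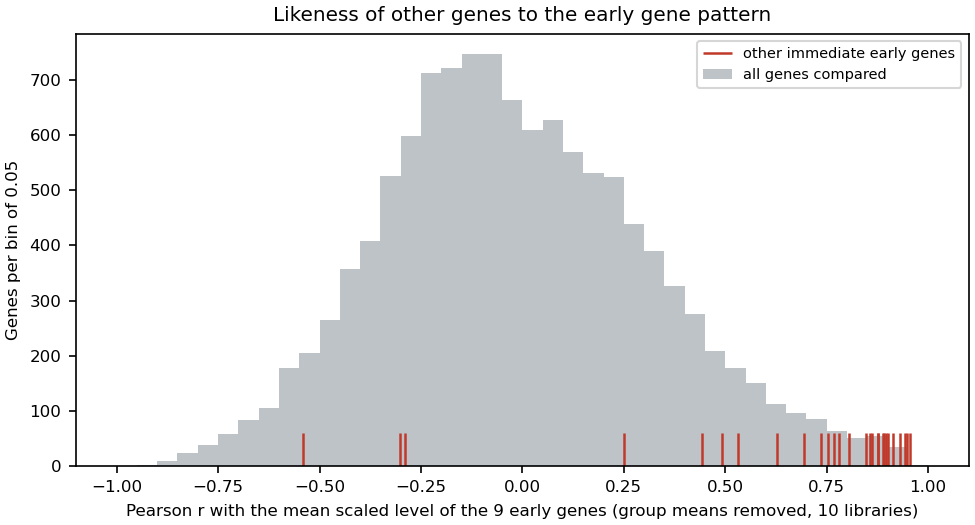
Number of genes per bin of 0.05 in r with the mean scaled level of the 9 early genes, over 11777 genes and 10 libraries, with genotype means removed. Red lines are 28 other immediate early genes. Most lie to the right, with a median of 0.83, and 3 lie below 0.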

How the data were processed

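Strand-specific polyA libraries (dUTP method) were made from brown fat of 5 PnocCre and 5 Wildtype samples, per the labels' protocols. The submitters' processing notes name HISAT2 2.0.5, featureCounts 1.5.0-p3, DESeq2 and build GRCm39. Neither the gene annotation version nor how reads were assigned by strand is stated in the sources used here. The deposited table holds a signal per gene and library, which the authors made by dividing read counts by 1 size factor per library. Whole reads were recovered from it: 100% of the values were whole multiples of 1 step within 0.01 reads, with size factors from 0.858 to 1.21. The deposited log2 fold changes and p-values are the authors' own, and gene length is another deposited column.

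The main test was limma-trend (limma 3.58.1, R 4.3.3) with robust moderation on log2(value + 1), over 15301 genes averaging 10 or more normalised counts, 2-sided, with Benjamini-Hochberg adjustment. edgeR 4.0.16, DESeq2 1.42.0 and limma-voom on recovered reads, TMM factors, other pseudocounts and filters, array weights, a muscle covariate and libraries left out were alternatives. The limma-trend fit was tested on simulated counts, and the alternative fits were not. Members, gene lists and tests were chosen with earlier results of these data known. The text names the 9 members, at most 4 genes of each list by smallest p, the 10 genes most alike in pattern, and, chosen after their values were seen, Csrnp1, Zfp36, Dusp5, Fos, Klf4 and Ccn2.

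Replicates are numbered in accession order, and each library's title carries a number of its own, whose meaning the labels do not give. Whether the libraries are separate animals is not stated outright, so p-values reflect only how far these samples differ, which may be technical. Libraries of a group all differed beyond sampling noise (chi-square of at least 19.7 per degree of freedom). Motifs were counted on both strands, and overlapping matches were counted separately.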

Additional observations from a re-analysis of the deposited data

Results flagged for a closer look

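In normalised counts, 3 of the 18 groups of 5 libraries looked at (9 genes in each genotype) had 1 library far from the rest, by a gap to the next library of more than 0.71 of the group's range. Chance flags about 1 group in 20 where values are normally distributed, which these skewed counts need not be. In each it was PnocCre replicate 1 on the high side. Its level was 365 normalised counts for Nr4a3, where the next PnocCre library had 127. For Ier2 it was 1896, and the next was 793. For Ier5 it was 1315, and the next was 570. On the log2 scale, an alternative chosen after seeing the data, only 1 of the 18 groups passed the same limit, Ier2 in PnocCre (0.712), and the ratio was 0.486 for Nr4a3 and 0.553 for Ier5. The 3 genes share a library, so these are not separate events.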

How the results depend on the processing

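The number of genes called in all was 0 with limma, edgeR and limma-voom, while 2603 and 2692 had an unadjusted p under 0.05 with limma and edgeR. It was 575 with DESeq2 (368 higher and 207 lower) and 53 with array weights. With limma and 1 library left out it ran from 0 to 1, the 1 being without PnocCre replicate 3. With DESeq2 and 1 library left out, an alternative chosen after seeing the data, it was 449, 292, 585, 751 and 673 without PnocCre replicates 1 to 5 and 532, 232, 419, 291 and 255 without Wildtype replicates 1 to 5. Of the 9 early genes the count was 0 with limma, edgeR, limma-voom and DESeq2 on all libraries and under the other settings on limma, and 0 to 1 with DESeq2 and 1 library left out. Of the 4 further gene lists it was 0 with limma, 2 with DESeq2, 1 with array weights, and 2 to 3 with DESeq2 and 1 library left out. The cause of these differences was not tested.

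Of 270 values of single early genes under an alternative, 250 kept their direction and their side of the threshold, 19 changed sign and 1 (Egr3) passed the threshold. With array weights Nr4a2 was -0.083 and Ier3 -0.089. With the muscle covariate, which largely goes with genotype, Nr4a1 was -0.073, Egr1 -0.13 and Egr2 -0.42, and the median of the 9 was 0.13. With 1 library left out, limma gave 0.38 to 1.00 for Nr4a1, 0.80 to 1.96 for Egr1, 0.62 to 1.76 for Egr2, 0.99 to 1.73 for Egr3, 0.49 to 0.93 for Ier2, -0.059 to 0.26 for Nr4a2, -0.32 to 0.46 for Nr4a3, -0.13 to 0.24 for Ier3 and -0.47 to 0.23 for Ier5. DESeq2 without PnocCre replicate 1 gave -0.030 for Nr4a2, -0.26 for Nr4a3 and -0.14 for Ier3, and Ier5 was 0.015 without PnocCre replicate 5 and 0.24 without Wildtype replicate 3. Passing pairs of correlations were 22 with group means removed and 7 to 20 with 1 library left out, with exact permutation tests. No paired analysis was possible because the labels give no replicate number, and the number in each library's title occurs once. Counting precision was no limit for most values: the lowest was 6 reads, for Egr2 in Wildtype replicate 5.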

Other observations

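Atf3, the gene closest to the shared library pattern, swung as widely as the EGR genes. Its PnocCre replicates 1 to 5 had 2232, 108, 269, 499 and 473 normalised counts, and its Wildtype replicates 161, 608, 1604, 827 and 54.6. The highest and lowest library of Atf3 were again PnocCre replicate 1 and Wildtype replicate 5, and Wildtype replicate 3 came second. Btg2 had 2320, 774, 626, 957 and 939 in PnocCre and 482, 670, 1093, 653 and 369 in Wildtype. Klf2, with the opposite sign, had 1149, 2218, 1043, 1276 and 1717 in PnocCre and 1288, 1045, 658, 992 and 1148 in Wildtype. Its highest library was PnocCre replicate 2, which held the most lymphocyte markers, and its lowest was Wildtype replicate 3. PnocCre replicate 5, the next highest for Klf2, held the fewest lymphocyte markers of its group (282 normalised counts). A link of Klf2 with lymphocyte markers was not tested.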
